A study of Mus musculus with 27 samples.

Results

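Gene expression was compared between haematopoietic stem and progenitor cells (HSPCs) of the bone marrow taken around birth (Perinatal BM) and those of the fetal liver at E16.5, the embryonic day (E16.5 FL). Each group had 3 RNA-seq libraries, and all 6 came from C57BL/6 mice. A gene entered the comparison when it had at least 1 FPKM, the number of sequenced fragments scaled to transcript length and to the fragments of the library, in 3 or more of the 6 libraries. This left 11492 of the 24418 entries in the table. The 6 libraries belong to a series of 27, with 9 groups that run from E12.5 to 8 weeks of age. The 2 groups differ in age and in organ at the same time, so the effects of age and organ cannot be told apart. The day of the perinatal collection, the surface markers used for the sort, the sex of the animals and the number of animals behind a library were not given in the sources used here. Nothing in the labels says that the libraries came from separate animals or litters. The p-values therefore measure the spread between libraries, which may in part be technical. Unless stated otherwise, that spread was pooled over all 27 libraries, so it is not that of these 6 alone.

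The fetal liver is the main site where mouse HSPCs expand before birth, and the marrow is seeded by cells that travel through the blood in late gestation. Fetal HSPCs are known for rapid division and for a set of fetal regulators such as Lin28b, Igf2bp2 and Hmga2, which fade after birth. Adult marrow HSPCs divide seldom and are held in niches through Kit, Cxcr4 and integrins.

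The libraries carried the transcripts of HSPCs in both groups. Kit, the receptor of stem cell factor, lay at 102, 109 and 139 FPKM in E16.5 FL (libraries 1, 2 and 3, the order used throughout) and 183, 176 and 178 FPKM in Perinatal BM. Cd34, a surface glycoprotein of progenitors, had 292 ± 20.6 against 318 ± 24.2 FPKM (mean ± SD, n = 3, E16.5 FL first), and Flt3, a receptor of multipotent and lymphoid progenitors, had 148 ± 2.17 against 182 ± 11.9 FPKM. The pan-leukocyte gene Ptprc had 72.5 ± 5.34 against 77.9 ± 3.29 FPKM, and Cd48, which marks cells past the stem cell stage, 70.8 ± 4.93 against 69.6 ± 13.5 FPKM. The liver marker Alb was listed at 0 in all 3 Perinatal BM libraries and at 2.93 to 4.13 FPKM in E16.5 FL. The other defining liver genes had low values in Perinatal BM, 0.435 to 0.984 FPKM for Afp, 0.133 to 0.569 for Apoa1 and 0 to 0.221 for Ttr. In E16.5 FL they had 2.3 to 3.76, 0.679 to 1.13 and 0.451 to 0.568 FPKM. Of 6 defining stromal genes 5 (Col1a1, Cxcl12, Kitl, Lepr and Bglap) stayed under 1 FPKM in each library. Col1a2 had 0.418 to 0.478 FPKM in E16.5 FL and 0.739 to 1.48 FPKM in Perinatal BM. FPKM summed to 526535 to 611034 per library, and counts are not given, so the sequencing depth is unknown. From the steps between the lowest values, relative depth was 0.889 to 1 in E16.5 FL and 0.707 to 0.914 in Perinatal BM. Each library had transcripts of Xist (45.5 to 72.8 FPKM) and of the Y-linked gene Ddx3y (17.2 to 33.1 FPKM), so each held RNA of both sexes. Across genes, which are no replicates, the libraries correlated at r = 0.975 to 0.986 within Perinatal BM, 0.988 to 0.991 within E16.5 FL and 0.951 to 0.961 between the groups.

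Of the 11492 genes, 1771 rose and 1798 fell in Perinatal BM, which is 15.4% and 15.6% of the genes compared (limma on log2(FPKM + 1), all 27 libraries in the fit, Benjamini-Hochberg adjusted p under 0.05 over 13350 genes). A fit of the 6 libraries alone called fewer genes, 1042 higher (9.07%) and 953 lower (8.29%), and 1881 genes were called in both fits. Of the 11492 genes, 975 were higher and 906 lower in both fits. These counts and shares are the background for the list counts below. Below, a gene is said to have risen or fallen where the fit of 27 libraries called it, and genes that the 6-library fit did not call are named as such. The higher genes held more of the large differences. At least 2-fold changes on the FPKM + 1 scale were seen for 287 higher genes (2.5%) and 139 lower ones (1.21%). The values of the groups did not overlap for 4670 genes (40.6%), and 3294 of these were called. The 12 genes named for the largest difference in each direction were picked among genes without overlap. Their separation is therefore no added support. The median log2 difference of the 11492 genes was -0.01.

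**Figure D1:**
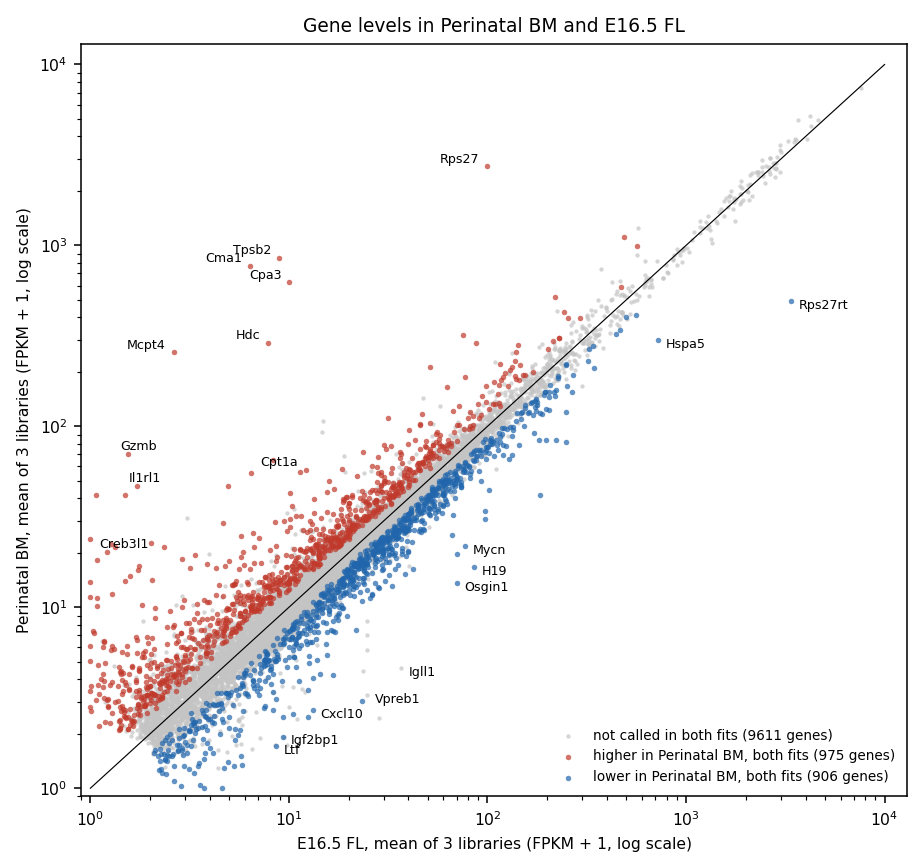
Mean FPKM + 1 of each of the 11492 genes in E16.5 FL (horizontal, log scale) and Perinatal BM (vertical, log scale), with the line of equal levels; red and blue points are the 975 higher and 906 lower genes called in both fits. Mast cell genes (Cma1, Tpsb2, Cpa3, Hdc, Mcpt4) lie far above the line, from under 10 FPKM in E16.5 FL to between 255 and 849 FPKM in Perinatal BM.

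The largest rises were those of mast cell genes. Mast cells are granulated cells that arise from marrow and fetal progenitors and store proteases, histamine and heparin. Of the 29 mast cell genes compared, 27 rose, none fell and 26 were called higher in both fits, with a median log2 difference of 2.52. Many of these genes entered through Perinatal BM alone: 13 had a mean under 1 FPKM in E16.5 FL. Of the 16 with a mean of at least 1 FPKM in both groups, 14 rose, against 14.3% of all genes of that kind. Cma1, the chymase of connective tissue mast cells, had 11.1, 4.18 and 0.781 FPKM in E16.5 FL and 793, 377 and 1148 FPKM in Perinatal BM, a log2 difference of 7.19 ± 0.46 (SE) with adjusted p = 1.35e-10. Every Perinatal BM library stood above every E16.5 FL library, as the rule that picked this gene required. The fold on the FPKM + 1 scale was 146-fold, but it was 231-fold without E16.5 FL1 and 88.6-fold without E16.5 FL3. Tpsb2, a tryptase, had 18.4, 3.81 and 1.66 FPKM in E16.5 FL and 986, 452 and 1108 FPKM in Perinatal BM, a log2 difference of 6.98 ± 0.44 (SE). Its fold of 126-fold became 221-fold without E16.5 FL1 and 81.9-fold without E16.5 FL3. Cpa3, the mast cell carboxypeptidase, had 15.3, 7.95 and 3.89 FPKM in E16.5 FL and 716, 306 and 846 FPKM in Perinatal BM, a 64-fold rise with adjusted p = 1.05e-10. Within Perinatal BM all of these were lowest in library 2, and within E16.5 FL they were highest in library 1 and lowest in library 3.

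Receptors and transcription factors of the lineage rose as well, at lower levels than the main proteases in Perinatal BM. Fcer1a and Ms4a2, subunits of the high-affinity IgE receptor, rose from 0.0418 to 6.24 FPKM and from 0.287 to 5.07 FPKM. Il1rl1, the receptor of the alarmin IL-33, had 0.917, 0.816 and 0.412 FPKM in E16.5 FL and 52.6, 29.5 and 55.6 FPKM in Perinatal BM, a 26.6-fold rise. Gata2, a transcription factor of stem, mast and basophil progenitor cells, rose from 39.3 ± 2.81 to 94.7 ± 4.97 FPKM (log2 difference 1.25 ± 0.12 (SE), adjusted p = 7e-08). Mitf, which drives mast cell granule genes, rose from 1.91 to 5.07 FPKM, and Kit rose from 117 to 179 FPKM. Hdc, the enzyme that makes histamine, had 10.2, 5.79 and 4.49 FPKM in E16.5 FL and 256, 158 and 454 FPKM in Perinatal BM, and Cyp11a1, the enzyme of the first step of steroid synthesis, rose from 0.492 ± 0.141 to 40.6 ± 15.2 FPKM. Slc6a4, the serotonin transporter, and Tph1, the enzyme that makes serotonin's precursor, rose from 0.276 to 21.3 FPKM and from 0.0789 to 17.4 FPKM. Creb3l1, a membrane-bound transcription factor of secretory cells, rose from 0.214 to 19.3 FPKM. Mrgprb2, the mast cell receptor for cationic peptides, was listed at 0 in all E16.5 FL libraries and had 7.49, 5.1 and 2.62 FPKM in Perinatal BM. The summed level of the 30 mast cell genes listed was 989, 797 and 782 FPKM in E16.5 FL and 4753, 2709 and 5681 FPKM in Perinatal BM. In bulk RNA, a larger share of mast cells or mast cell progenitors and more RNA of these genes per cell cannot be told apart.

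Part of these proteases lie side by side in the genome, and not all neighbours rose. The table gives names, and positions are those of RefSeq on GRCm38.p6. On chromosome 14, between the start of Cma1 at 55941451 and the end of Gzmb at 56262334, Cma1, Mcpt1, Mcpt2, Mcpt4, Mcpt8, Ctsg and Gzmb rose in both fits. Mcpt2 and Mcpt1 were listed at 0 in each E16.5 FL library, and Mcpt2 had 18.5, 11.4 and 38.5 FPKM in Perinatal BM. Mcpt4, another chymase, had 3.31, 1.46 and 0.134 FPKM in E16.5 FL and 335, 121 and 309 FPKM in Perinatal BM. Gzmb, a granzyme known from killer cells and some mast cells, had 0.659, 0.73 and 0.249 FPKM in E16.5 FL and 52.9, 42.3 and 113 FPKM in Perinatal BM, a 42-fold rise. The granzyme genes Gzmd, Gzme, Gzmf and Gzmg, which lie between Ctsg and Gzmb, were listed at 0 in all 6 libraries. On chromosome 17, the tryptase genes Tpsb2, Tpsg1 and the transcribed pseudogene Tpsab1 rose next to Prss34, a protease of basophils. Coding sequences of Mcpt2 and Mcpt4 were identical at 78.8% of aligned positions.

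The promoters of 3 of the most changed mast cell genes are shown because Gata2, which binds GATA motifs, rose with them. The windows are the bases before the annotated gene start in RefSeq (GRCm38.p6), written 5′ to 3′ on the gene's strand. The motif GATAA, searched on both strands, is in capitals (as TTATC on the other strand). The window of Cpa3 was chr3:20242210-20242431 (minus strand), that of Cma1 chr14:55944676-55944925 (minus strand) and that of Mcpt4 chr14:56062311-56062560 (minus strand).
Cpa3: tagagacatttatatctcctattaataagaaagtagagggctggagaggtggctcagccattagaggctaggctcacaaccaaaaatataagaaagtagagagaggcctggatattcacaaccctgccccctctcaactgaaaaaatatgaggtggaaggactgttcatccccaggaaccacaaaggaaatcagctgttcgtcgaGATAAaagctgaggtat
Cma1: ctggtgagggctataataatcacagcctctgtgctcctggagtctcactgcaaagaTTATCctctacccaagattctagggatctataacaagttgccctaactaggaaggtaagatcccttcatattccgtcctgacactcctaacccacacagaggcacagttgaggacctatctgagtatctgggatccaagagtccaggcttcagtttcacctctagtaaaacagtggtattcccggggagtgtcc
Mcpt4: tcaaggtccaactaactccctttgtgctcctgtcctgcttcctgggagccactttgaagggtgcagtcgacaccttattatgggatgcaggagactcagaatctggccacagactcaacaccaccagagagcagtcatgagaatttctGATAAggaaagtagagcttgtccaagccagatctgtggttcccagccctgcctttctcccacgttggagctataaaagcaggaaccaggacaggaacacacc
Each of the 3 windows held 1 GATAA, and 22.6% of all 32851 RefSeq windows of 250 bases held at least 1. The window of Hdc held none. The E-box CATGTG, the form that Mitf binds, was in 12.3% of all windows and in none of these 4. A match of letters is a description and does not show a bound site. Windows of other mast cell genes, such as Tpsb2, were not searched, so the matches are those of a chosen set. The part of Gata2 in the rise of these genes was not tested.

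Basophil genes rose beside the mast cell genes, with 13 of 14 higher and 11 in both fits (median log2 difference 1.45). A mean under 1 FPKM in E16.5 FL was seen for 5 of them, and of the 9 with at least 1 FPKM in both groups 8 rose, against 14.3% of such genes. Mcpt8, the basophil protease, had 1.44, 0.967 and 1.64 FPKM in E16.5 FL and 24.8, 13.7 and 23.2 FPKM in Perinatal BM, with a log2 difference of 3.17 ± 0.22 (SE) and adjusted p = 6.63e-10. Prss34 had 1.27, 0.515 and 1.31 FPKM in E16.5 FL and 22.4, 16.49 and 26.5 FPKM in Perinatal BM, and Cd200r3, an activating receptor, rose from 0.818 ± 0.458 to 9.29 ± 2.57 FPKM. The groups did not overlap for any of the 3. The cytokines Osm and Il6 rose from 2.38 to 18.4 FPKM and from 0.838 to 4.6 FPKM. The summed level of the basophil list was 56.5, 53.9 and 45.7 FPKM in E16.5 FL and 207, 169.8 and 174 FPKM in Perinatal BM. Genes of the products of these cells rose too. Of 23 genes of heparin and histamine synthesis, 13 rose (9 in both fits, and 10 of the 20 with at least 1 FPKM in both groups) and none fell, among them Ndst2, a heparin sulfotransferase, from 8.46 ± 0.364 to 28.8 ± 4.29 FPKM, Papss2, which makes the sulfate donor, from 0.588 to 13.9 FPKM, and Hs3st1 from 0.497 to 12.9 FPKM. Of 18 genes of prostaglandin and leukotriene synthesis, 8 rose (6 in both fits, and 6 of the 16 with at least 1 FPKM in both groups) and 1 fell. Alox5, the first enzyme of leukotriene synthesis, rose from 1.05 ± 0.374 to 13.2 ± 4.46 FPKM, Hpgds, the haematopoietic prostaglandin D synthase, from 1.86 to 6.2 FPKM, and Pla2g7, which degrades platelet-activating factor, from 0.764 to 15.9 FPKM.

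Several eosinophil and early neutrophil granule genes were higher in Perinatal BM 1 and 2 than in Perinatal BM3. Prg2, the eosinophil major basic protein, had 17.8, 8.77 and 15 FPKM in E16.5 FL and 159.8, 131 and 26.5 FPKM in Perinatal BM, with a log2 difference of 2.55 ± 0.47 (SE) and adjusted p = 0.000316. Without Perinatal BM3 the difference was 3.35. Epx, the eosinophil peroxidase, had 0.718, 0.318 and 1.49 FPKM in E16.5 FL and 10.3, 10.2 and 1.67 FPKM in Perinatal BM, and its log2 difference of 1.97 became 2.66 without Perinatal BM3. Neither was called in the 6-library fit. Prg3, another defining eosinophil gene, overlapped, with 1.2, 0.118 and 0.121 FPKM in E16.5 FL and 4.17, 2.96 and 1.05 FPKM in Perinatal BM. Il5ra, the IL-5 receptor chain, stayed under 1 FPKM in all 6 libraries, with 0.449 ± 0.122 against 0.465 ± 0.179 FPKM. Of 8 eosinophil genes 5 rose, 8 without Perinatal BM3 and 1 (Siglecf, an eosinophil lectin) in both fits, and 3 rose of the 6 with at least 1 FPKM in both groups. The shares of all genes compared were 15.4% higher and 15.6% lower. Of the 14 primary granule genes, 7 rose and 1 fell, with 4 higher without E16.5 FL3 or Perinatal BM2, 11 without Perinatal BM3, and 2 higher in both fits. Those 2 were Ctsg, the protease cathepsin G, with 78.7, 42.5 and 30.3 FPKM in E16.5 FL and 271, 240.5 and 125 FPKM in Perinatal BM, and Cst7, a cysteine protease inhibitor, from 27.2 to 66.7 FPKM. Mpo, the myeloperoxidase of primary granules, had 729.8, 544 and 436 FPKM in E16.5 FL and 1367, 1594 and 789 FPKM in Perinatal BM (adjusted p = 0.00945). Its call was lost in the 6-library fit and without E16.5 FL3 (adjusted p = 0.0537) or Perinatal BM2 (0.0589). Elane, the neutrophil elastase, overlapped between the groups, with 188, 87.2 and 51 FPKM in E16.5 FL and 278, 309 and 91.1 FPKM in Perinatal BM (adjusted p = 0.154).

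The genes of later neutrophil stages did not rise: of 14, none were called higher (2 without Perinatal BM3) and 5 fell, 2 of them in both fits. Among all genes compared, 15.4% rose and 15.6% fell. Ltf, lactoferrin of secondary granules, had 10.5, 7.03 and 5.34 FPKM in E16.5 FL and 0.673, 0.625 and 0.822 FPKM in Perinatal BM, a log2 difference of -2.30 ± 0.15 (SE) with adjusted p = 1.19e-10, and the values of the groups lay far apart. Stfa3, a stefin of neutrophils, fell from 14.6 to 4.48 FPKM. S100a8 and Camp overlapped, with 381, 203 and 145 FPKM in E16.5 FL and 440.4, 257 and 90.5 FPKM in Perinatal BM for S100a8. Camp, an antimicrobial peptide, had 30.2, 20.9 and 15.7 FPKM in E16.5 FL and 26.3, 27.8 and 1.89 FPKM in Perinatal BM. Perinatal BM3 was the lowest library of all 6 in both. Summed over the list, late neutrophil genes came to 1032, 584 and 411 FPKM in E16.5 FL and 1145, 934 and 242 FPKM in Perinatal BM, and primary granule genes to 1614, 1121 and 895 FPKM in E16.5 FL and 2831, 3007 and 1559.6 FPKM in Perinatal BM.

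**Figure D2:**
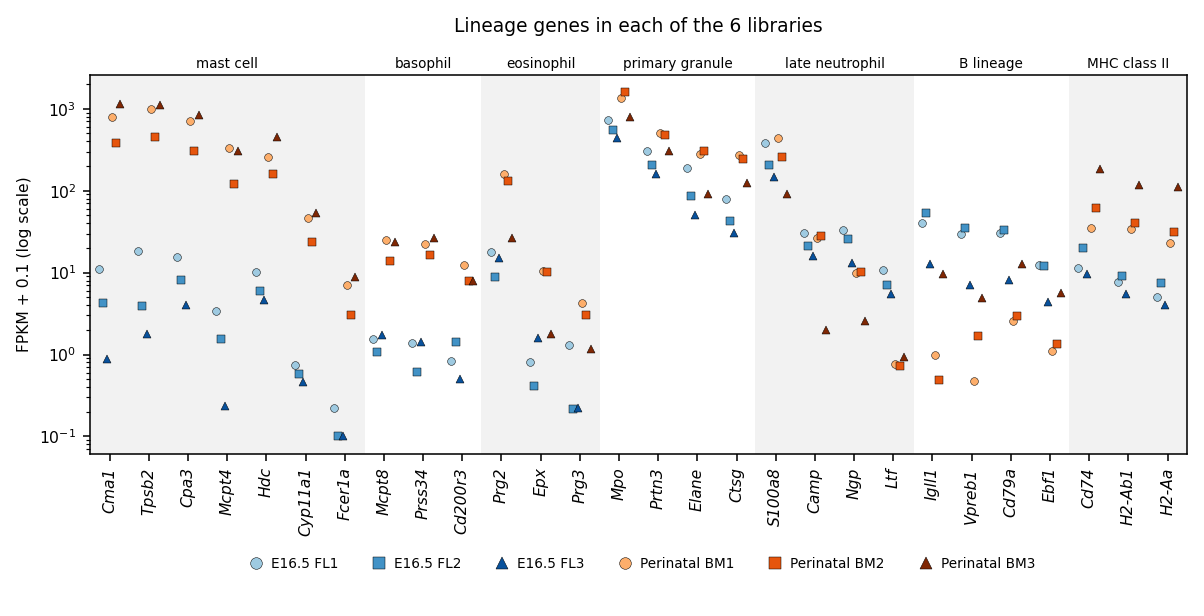
FPKM + 0.1 (log scale) of lineage genes in each of the 6 libraries, E16.5 FL in blue and Perinatal BM in orange and brown. The mast cell and basophil genes drawn, chosen with earlier results known, separate the groups completely. Within Perinatal BM library 3 is the lowest for Prg2 and Epx. B lineage genes are low in Perinatal BM 1 and 2. Library 3 of Perinatal BM comes close to E16.5 FL3 for Igll1 and Vpreb1 and lies above it for Cd79a and Ebf1.

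B lineage genes were lower in Perinatal BM, and the libraries within each group differed. Of 20 compared, 17 fell and 1 rose, but only 4 of the lower ones were called in both fits (median log2 difference -1.73). Of the 16 with a mean of at least 1 FPKM in both groups 14 fell, against 15.3% of such genes. Igll1, which with Vpreb1 forms the surrogate light chain of the pre-B receptor, had 40.7, 53.7 and 12.8 FPKM in E16.5 FL and 0.899, 0.383 and 9.53 FPKM in Perinatal BM, a log2 difference of -3.38 ± 0.49 (SE) with adjusted p = 2.45e-05. Perinatal BM3 lay just under E16.5 FL3. The difference was -4.28 without Perinatal BM3 and -3.98 without E16.5 FL3. Vpreb1 had 29.9, 34.5 and 6.91 FPKM in E16.5 FL and 0.375, 1.6 and 4.87 FPKM in Perinatal BM, and its log2 difference of -2.90 became -3.59 without E16.5 FL3. Coding sequences of Vpreb1 and Vpreb2 were 97.9% identical, so how reads were split between them is uncertain. Vpreb3 fell from 22.6 to 3.45 FPKM (log2 difference -2.88, -2.12 without Perinatal BM2 and -3.77 without Perinatal BM3). Pou2af1, a B cell coactivator, fell from 9.93 to 1.42 FPKM (-2.41, and -3.09 without Perinatal BM3). The 6-library fit did not call any of these 4. Of the 20 genes, 12 did not overlap between the groups, where 40.6% of all genes compared did not. The others overlapped. Cd79a had 30.1, 32.9 and 8.07 FPKM in E16.5 FL and 2.46, 2.88 and 12.7 FPKM in Perinatal BM. Ebf1 had 12.3, 11.9 and 4.32 FPKM in E16.5 FL and 1.02, 1.26 and 5.61 FPKM in Perinatal BM. Perinatal BM3 lay above E16.5 FL3 in both. Called in both fits were Lef1, from 4.72 ± 2.54 to 0.509 ± 0.283 FPKM, Cd24a, Sox4 and Bank1, and the call for Bank1 was lost without Perinatal BM2 (adjusted p = 0.057). The exception was Dntt, the polymerase that adds untemplated bases to antigen receptor genes and is known to be scarce in fetal lymphopoiesis, which rose from 0.377 ± 0.18 to 2.67 ± 0.704 FPKM in both fits. Outside the B lineage, Cd28, a costimulatory receptor, fell from 15.7 ± 2.32 to 3.2 ± 0.585 FPKM. The defining T cell genes Cd3d and Cd3e were listed at 0 in all E16.5 FL libraries and under 1 FPKM in Perinatal BM. Cd3g had 0.41, 0.341 and 0 FPKM in E16.5 FL and 0.411, 0.437 and 1.71 FPKM in Perinatal BM. Each of these T cell genes was highest in Perinatal BM3.

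Several markers of tissue macrophages and red cells fell in Perinatal BM, most of them from a low level. Of 16 macrophage and monocyte genes, 7 fell, each in both fits, and 3 rose. Of these, 5 had a mean under 1 FPKM in Perinatal BM and had entered through E16.5 FL, and of the 11 with at least 1 FPKM in both groups 2 fell and 3 rose, a lower share near the 15.3% of all such genes. The complement genes C1qa, C1qb and C1qc, the macrophage genes Cd5l and Fcna, the heme oxygenase Hmox1 and the iron exporter Slc40a1 fell. C1qb had 3.65, 3.72 and 4.5 FPKM in E16.5 FL and 0.514, 0.138 and 0.54 FPKM in Perinatal BM, and Cd5l had 2.51, 2.36 and 3.31 FPKM in E16.5 FL and was listed at 0 in Perinatal BM. Those that rose in both fits were Mpeg1, from 7.75 to 18 FPKM, and the protease Ctss. Their summed level was 133, 129.7 and 111 FPKM in E16.5 FL and 132, 142 and 139 FPKM in Perinatal BM. Of 17 erythroid genes, 5 fell and 2 rose. Of the 14 with at least 1 FPKM in both groups 2 fell and 2 rose, near the shares of all such genes. Slc4a1, the anion exchanger of red cells, fell from 2.56 to 0.0366 FPKM. Hbb-b1, a beta globin, had 24.3, 18.7 and 23.8 FPKM in E16.5 FL and 0.561, 0 and 5.56 FPKM in Perinatal BM (log2 difference -3.41 ± 0.83 (SE), and -4.21 without Perinatal BM3). Globin copies are near-identical, so the split of reads among them is uncertain. Car1, a carbonic anhydrase of erythroid and other progenitors, rose from 2.16 to 15.5 FPKM.

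Megakaryocyte genes went the other way, with 8 of 18 higher (6 in both fits, and 6 of the 16 with at least 1 FPKM in both groups) and 1 lower. Among all genes compared, 15.4% rose and 15.6% fell, and 14.3% rose of those with at least 1 FPKM in both groups. Itga2b, the integrin alpha chain of platelets and early progenitors, had 8.84, 6.79 and 6.96 FPKM in E16.5 FL and 34.1, 32.6 and 18.9 FPKM in Perinatal BM (log2 difference 1.76 ± 0.22 (SE), adjusted p = 3.57e-06). Its partner Itgb3 had 1.86, 1.4 and 1.3 FPKM in E16.5 FL and 11.1, 7.84 and 6.74 FPKM in Perinatal BM. No library of one group reached the values of the other for these 2 genes. Gp1ba and Gp5, of the von Willebrand factor receptor, rose from 1.1 to 3.97 FPKM and from 0.705 to 2.45 FPKM. The platelet chemokine gene Ppbp stayed under 1 FPKM in all 6 libraries. Pf4, another platelet chemokine gene, overlapped, with 4.98, 2.45 and 3.93 FPKM in E16.5 FL and 16.8, 14.4 and 4.9 FPKM in Perinatal BM. Its call was lost without E16.5 FL2, Perinatal BM1 or Perinatal BM2. The platelet glycoprotein gene Gp9 also overlapped, with 15.5 ± 1.08 against 17.8 ± 2.73 FPKM. Mmrn1, a multimerin of platelets and stem cells, fell from 20.7 to 11.9 FPKM. Of 13 endothelial genes 6 fell (4 in both fits) and none rose. Esam, Emcn, Tie1 and Erg, which stem cells share with endothelium, fell, while the endothelial cadherin Cdh5 had 1.18 ± 0.165 against 0.382 ± 0.298 FPKM. Of 8 hepatocyte genes 3 fell and 1 rose, with 1 and 1 of the 5 that had at least 1 FPKM in both groups, and of 8 stromal genes 3 fell (2 in both fits) and 1 rose. Among 11 dendritic cell genes 4 rose (2 in both fits, and 2 without E16.5 FL3) and none fell. Among 7 T and NK cell genes 2 rose and 1 fell, with Nkg7, a granule protein, from 25.1 to 59.5 FPKM. The part that changes in cell makeup had in the differences described below was not tested.

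Genes that mark stem cells, rather than progenitors, were mostly lower in Perinatal BM. Of 28 stem cell identity genes, 15 fell and 3 rose, with 10 and 2 in both fits (median log2 difference -0.42). Among all genes compared, 15.6% fell and 15.4% rose. Mecom, a transcription factor needed for stem cell maintenance, had 14.7, 12.9 and 16.1 FPKM in E16.5 FL and 7.38, 6.93 and 4.58 FPKM in Perinatal BM, a log2 difference of -1.11 ± 0.19 (SE) with adjusted p = 0.000155. Procr, the surface receptor that marks the most primitive cells, had 15.6, 14.5 and 18.9 FPKM in E16.5 FL and 9.15, 7.72 and 6.75 FPKM in Perinatal BM. In both genes the lowest E16.5 FL library lay above the highest Perinatal BM library. Mllt3 and Hlf, factors of stem cell self-renewal, fell from 15.6 to 7.36 FPKM and from 72.1 to 45 FPKM. Fgd5, a stem cell marker, fell from 17 to 8.31 FPKM, and Msi2, an RNA-binding protein of stem cells, from 70.6 to 47.9 FPKM. Those that rose in both fits were Gata2 and Socs2, an inhibitor of cytokine signalling, from 7.6 to 17 FPKM. Ly6a, the Sca-1 antigen used in many HSPC sorts, had 9.03, 8.94 and 10.7 FPKM in E16.5 FL and 36.6, 14.9 and 50.7 FPKM in Perinatal BM (adjusted p = 0.000239) and was not called in the 6-library fit. Among the 18 surface genes of HSPC sorts 6 rose and 3 fell (3 and 2 in both fits), with Fcgr3, the Fc receptor that marks granulocyte and macrophage progenitors, from 9.11 ± 2.94 to 41.6 ± 2.23 FPKM.

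The fetal programme fell, in part. Of its 18 genes, 10 fell (9 in both fits) and none rose, with a median log2 difference of -0.54. In Perinatal BM 3 of the 18 had a mean under 1 FPKM, and of the 15 with at least 1 FPKM in both groups 7 fell, against 15.3% of such genes. Igf2bp1, a fetal protein that binds mRNA, had 6.07, 8.32 and 10.8 FPKM in E16.5 FL and 0.848, 0.914 and 1.02 FPKM in Perinatal BM, a log2 difference of -2.25 ± 0.13 (SE) with adjusted p = 2.23e-11. Igf2, the fetal growth factor, had 7.18, 9 and 12.1 FPKM in E16.5 FL and 1.55, 1.02 and 2.1 FPKM in Perinatal BM. For both, the groups did not overlap. Its neighbour H19, an imprinted non-coding RNA, had 82.9, 86.3 and 83 FPKM in E16.5 FL and 7.16, 7.9 and 32.1 FPKM in Perinatal BM, where Perinatal BM3 had the highest level of its group. The log2 difference of H19 was -2.67 ± 0.30 (SE), and -3.32 without Perinatal BM3. Hmga2, a chromatin protein of fetal self-renewal, fell from 187 ± 3.09 to 115 ± 5.9 FPKM and Igf2bp2 from 38.8 ± 2.95 to 19.6 ± 1.34 FPKM. Lin28b, which blocks the let-7 microRNAs, was not called, with 11.6, 12.48 and 14.8 FPKM in E16.5 FL and 9.86, 11.1 and 9.71 FPKM in Perinatal BM (adjusted p = 0.154). Mycn, a proto-oncogene of fetal growth, had 73.1, 72.3 and 82.6 FPKM in E16.5 FL and 22.9, 21.8 and 17.6 FPKM in Perinatal BM, a 3.55-fold fall on the FPKM + 1 scale. Imprinted genes as a list had 11 of 31 lower (9 in both fits, and 10 of the 26 with at least 1 FPKM in both groups) and none higher. Ndn, Cdkn1c and Rian fell from 15.6 to 6.39 FPKM, from 16.1 to 6.3 FPKM and from 6.52 to 1.79 FPKM, Dlk1 from 25.1 to 14.5 FPKM, and Igf2r from 10.2 to 4.98 FPKM. The Hox list had 4 of 11 lower (3 of the 10 with at least 1 FPKM in both groups) and none higher, with 1 left without E16.5 FL3 or Perinatal BM2, and Hoxa5 fell from 33.3 ± 3.35 to 18.8 ± 1.48 FPKM in both fits.

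Most genes of mitosis fell, and most genes of DNA replication were not called. Of 51 mitosis genes, 38 fell and 1 rose, 31 of the lower ones in both fits and none of the higher (median log2 difference -0.42). Among all genes compared, 15.6% fell and 15.4% rose. Hmmr, a spindle protein, had 20.9, 24.8 and 21.6 FPKM in E16.5 FL and 9.61, 9.31 and 10.5 FPKM in Perinatal BM, with a log2 difference of -1.11 ± 0.10 (SE) and adjusted p = 1.83e-08. Plk1, the mitotic kinase, had 32.6, 39.1 and 36.9 FPKM in E16.5 FL and 17.9, 17.7 and 22.7 FPKM in Perinatal BM. The values of the groups were apart in both genes. Ube2c, which tags mitotic cyclins for destruction, fell from 169.9 ± 26.4 to 90.8 ± 20.3 FPKM, Aurka, a centrosome kinase, from 31.9 to 18.9 FPKM, and Ccnb1, the mitotic cyclin, from 59 to 41.5 FPKM. Mki67, the common marker of cycling cells, had 60.3 ± 1.4 against 47.1 ± 5.96 FPKM and was not called (adjusted p = 0.14). Of 42 replication genes 7 fell and 2 rose, with 3 and 0 in both fits, a lower share near that of all genes. The 7 became 4 without E16.5 FL1 or Perinatal BM2, 3 without E16.5 FL3 and 2 without Perinatal BM1, and the 2 that rose became 0 without E16.5 FL1 or E16.5 FL3 and 1 without any other library. Mcm2, of the replicative helicase, had 109 ± 0.141 against 99 ± 3.85 FPKM (adjusted p = 0.105). Of 24 genes of G1 cyclins and E2F factors 3 rose and 4 fell, near the 15.4% and 15.6% of all genes. The 4 became 2 without E16.5 FL2, E16.5 FL3 or Perinatal BM1. Of 24 CDK inhibitors and quiescence genes 3 rose and 5 fell, all in both fits, shares not far from those of all genes. The inhibitor Cdkn1c is among those that fell, as are Txnip, a thioredoxin inhibitor, from 203 to 122 FPKM, and Foxo1 from 19.3 to 10.8 FPKM.

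Histone transcripts were lower as well. Of 61 compared, 31 fell (16 in both fits) and 1 rose, with a median log2 difference of -0.83, where 15.6% of all genes fell and 15.4% rose. The means of 15 were under 1 FPKM in Perinatal BM, and of the 46 with at least 1 FPKM in both groups 22 fell. Hist1h2bb had 13.7, 11.9 and 8.63 FPKM in E16.5 FL and 1.35, 0 and 3.05 FPKM in Perinatal BM (log2 difference -2.53 ± 0.37 (SE)), and Hist1h2bc had 120.0, 92.7 and 77.3 FPKM in E16.5 FL and 25.2, 18.6 and 45.8 FPKM in Perinatal BM. Hist1h2bg had 32.7, 23.9 and 14.9 FPKM in E16.5 FL and 4.04, 0.944 and 9.52 FPKM in Perinatal BM, was not called in the 6-library fit, and had a log2 difference of -2.34 that was -1.70 without Perinatal BM2. In all 3, Perinatal BM2 had the lowest level of its group. Most histone transcripts lack a poly(A) tail, and the gene copies are alike in sequence, so the values of single copies are uncertain. H2afj, a polyadenylated variant, rose from 50.5 ± 5.14 to 103 ± 8.6 FPKM.

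Chaperones of the cytosol, which fold new and damaged proteins, were mostly lower or not called. Of 29 cytosolic heat shock chaperones, 16 fell (10 in both fits, and 14 of the 27 with at least 1 FPKM in both groups) and 1 rose. The shares of all genes were 15.6% lower and 15.4% higher. Hsph1, a co-chaperone of Hsp70, had 26.2, 29.7 and 32 FPKM in E16.5 FL and 10.9, 10.4 and 17.6 FPKM in Perinatal BM, a log2 difference of -1.15 ± 0.17 (SE) with adjusted p = 3.6e-05. Hsp90aa1, the inducible Hsp90, fell from 558 ± 26.1 to 413 ± 37.2 FPKM, Hspa4 from 119 to 77.8 FPKM and the mitochondrial chaperonin Hspd1 from 268 to 191 FPKM. Hspa1a, the inducible Hsp70, fell from 8.79 to 0.735 FPKM in the fit of 27 libraries alone, with a log2 difference of -2.20 that was -2.80 without E16.5 FL1 and -1.60 without E16.5 FL2. Its coding sequence is 99.4% identical to that of Hspa1b, so the split of reads between them is uncertain. Bag3, a co-chaperone, rose from 1.83 to 3.78 FPKM.

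Some genes of protein folding in the endoplasmic reticulum changed, in both directions, while the counts of the list were near or under the 15.4% and 15.6% of all genes. Of 39 chaperones and unfolded protein response genes, 7 rose (4 without E16.5 FL3) and 4 fell, with 6 and 4 in both fits. Hspa5, the main chaperone BiP, had 845, 757 and 553 FPKM in E16.5 FL and 281, 291 and 328 FPKM in Perinatal BM, a log2 difference of -1.24 ± 0.17 (SE) with adjusted p = 1.84e-05, and no library overlapped. Dnajb9 and Syvn1, both of the pathway that degrades misfolded proteins, fell from 72.3 to 45.1 FPKM and from 23.3 to 14.4 FPKM. Ero1l, the oxidase of disulfide formation, rose from 23.3 to 37.7 FPKM and Edem2, of the same degradation pathway, from 26.4 to 38 FPKM. Of 31 genes of the integrated stress response and amino acid supply, 6 fell, all in both fits, and 4 rose, with 2 higher without E16.5 FL1, E16.5 FL2 or Perinatal BM1, and these shares too were near those of all genes. Ddit3, the transcription factor CHOP, had 94.7, 65.6 and 47.7 FPKM in E16.5 FL and 15.4, 12.8 and 28 FPKM in Perinatal BM, with a log2 difference of -1.85 ± 0.32 (SE), and Atf4, the central factor of the response, had 412, 334 and 279 FPKM in E16.5 FL and 196, 211 and 221 FPKM in Perinatal BM. E16.5 FL1 was the highest and E16.5 FL3 the lowest of its group in Hspa5, Ddit3 and Atf4. Slc7a5, a transporter of large amino acids, rose from 54.8 to 92.3 FPKM. The promoter of Hspa5 is shown for its stress element, whose motif (CCAAT and CCACG, 9 bases of any kind apart), searched on both strands, is in capitals. The window is chr2:34771840-34772089 (plus strand), RefSeq GRCm38.p6.
Hspa5: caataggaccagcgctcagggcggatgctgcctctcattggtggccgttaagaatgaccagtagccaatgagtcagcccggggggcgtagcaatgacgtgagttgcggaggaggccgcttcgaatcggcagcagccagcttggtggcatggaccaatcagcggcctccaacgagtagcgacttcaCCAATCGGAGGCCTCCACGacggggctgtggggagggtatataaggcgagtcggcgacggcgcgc
This motif was in 0.113% of the 32851 windows, 37 in all. The match is a description of the sequence.

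Where they were called, genes of lipid synthesis fell and most genes of fatty acid breakdown rose. Of 34 genes of cholesterol and lipid synthesis and transport, 10 fell (9 in both fits) and none rose, with a median log2 difference of -0.24. Scd2, a desaturase that makes monounsaturated fatty acids, had 192, 192 and 203 FPKM in E16.5 FL and 82.9, 78.9 and 87.2 FPKM in Perinatal BM, a log2 difference of -1.23 ± 0.09 (SE) with adjusted p = 8.16e-10. Abcg1, which exports cholesterol, had 24.2, 24.8 and 26.9 FPKM in E16.5 FL and 9.77, 11.6 and 10.6 FPKM in Perinatal BM. The regulators Srebf1 and Srebf2 fell from 45.8 ± 0.47 to 29.4 ± 1.47 FPKM and from 86.3 ± 2.94 to 64 ± 3.26 FPKM. Of 29 genes of fatty acid oxidation and PPAR targets, 10 rose and 1 fell, with 7 and 0 in both fits. Cpt1a, which admits fatty acids to mitochondria, had 11.4, 10.6 and 11.5 FPKM in E16.5 FL and 58.9, 59 and 50.8 FPKM in Perinatal BM, a 4.7-fold rise (log2 difference 2.23 ± 0.11 (SE), adjusted p = 1.34e-12). No other gene of that list changed by as much, with Acaa2 from 32.5 to 47.7 FPKM, Slc25a20 from 17.6 to 25.1 FPKM, Acadvl from 22.3 to 29.5 FPKM and Acadl from 35.2 to 47.6 FPKM. Of 48 respiratory chain genes 2 rose (1 in both fits) and none fell, under the share among all genes. The 2 became 4 without Perinatal BM2. Their differences ranged from -0.31 to 0.36 on the log2 scale. Of 26 glycolysis genes 4 rose and 5 fell, near the 15.4% and 15.6% of all genes. Pfkl, a phosphofructokinase, and the glucose transporters Slc2a1 and Slc2a3 fell from 58.5 to 35.8 FPKM, from 49.7 to 34.3 FPKM and from 41.9 to 29.5 FPKM, and Eno2, an enolase, rose from 0.717 to 5.62 FPKM.

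**Figure D3:**
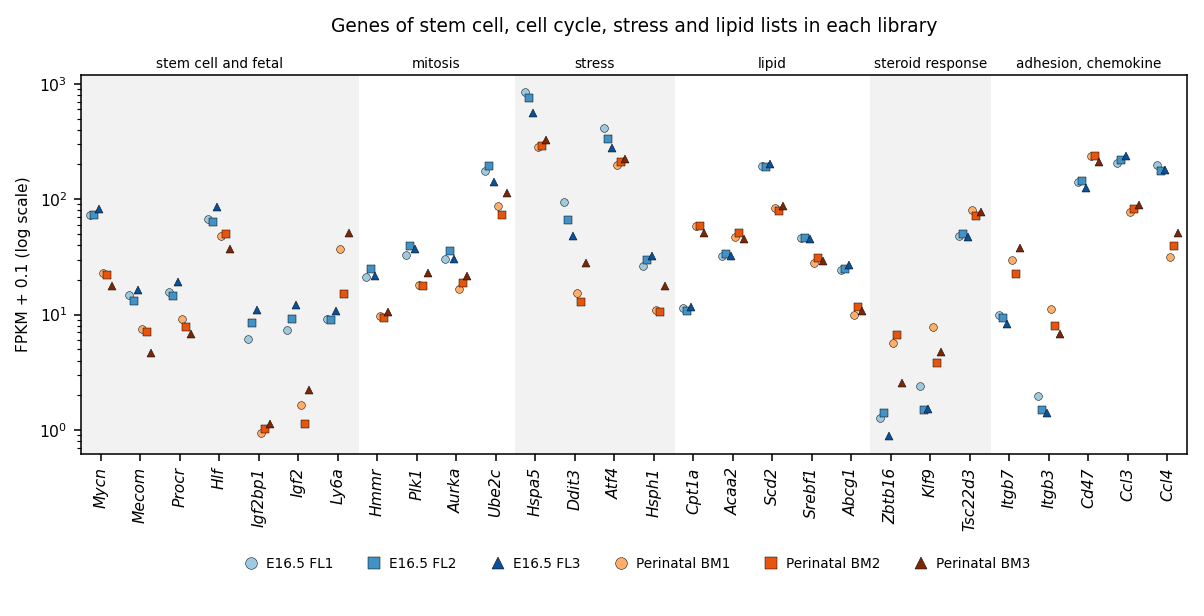
FPKM + 0.1 (log scale) of genes from the stem cell, fetal, mitosis, stress, lipid, steroid response, adhesion and chemokine lists in each of the 6 libraries. The groups do not overlap for any gene drawn, with Igf2bp1, Mycn and Ccl4 far lower and Cpt1a and Itgb3 far higher in Perinatal BM. The genes drawn were chosen with earlier results of these data known, so their separation is no added support. Of all genes compared, 40.6% did not overlap.

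Targets of glucocorticoid signalling, which surges around birth, were among the higher genes. Of 20, 9 rose and 3 fell, 8 and 3 in both fits (median log2 difference 0.41). Tsc22d3, the leucine zipper GILZ, had 47.7, 49.8 and 46.9 FPKM in E16.5 FL and 79.8, 71.4 and 77.1 FPKM in Perinatal BM, a log2 difference of 0.65 ± 0.12 (SE) with adjusted p = 0.00032. Zbtb16, the transcription factor PLZF, had 1.17, 1.31 and 0.78 FPKM in E16.5 FL and 5.6, 6.5 and 2.44 FPKM in Perinatal BM. Fkbp5, a co-chaperone of the receptor, had 23, 22.2 and 20.9 FPKM in E16.5 FL and 35.8, 30.1 and 34.7 FPKM in Perinatal BM, and Klf9 rose from 1.71 to 5.37 FPKM. For all 4 the groups did not overlap. Nr3c1, the receptor itself, rose from 15.4 ± 1.69 to 21.1 ± 0.73 FPKM, and Sgk1, a kinase target, fell from 27 ± 7.53 to 11.9 ± 2.49 FPKM. Of 30 immediate-early genes 8 rose and 3 fell, all in both fits. Egr1 had 64.8, 91.2 and 65.8 FPKM in E16.5 FL and 261, 418 and 277 FPKM in Perinatal BM (log2 difference 2.08 ± 0.25 (SE)) and Fosb had 71.6, 102 and 87.2 FPKM in E16.5 FL and 225, 283 and 354 FPKM in Perinatal BM. Fos rose from 218 to 517 FPKM, while Dusp5, a phosphatase of ERK, fell from 247 to 81 FPKM and Klf6 from 181 to 83.6 FPKM. Such genes respond within minutes to cell handling, whose part was not tested. Socs3, an inhibitor of cytokine signalling, had 3.79, 4.46 and 2.76 FPKM in E16.5 FL and 23.2, 27.5 and 34.3 FPKM in Perinatal BM, a 6.28-fold rise. Of 27 genes of TGF-beta and BMP signalling 7 rose (5 in both fits) and 1 fell, where 15.4% and 15.6% of all genes did. The BMP target Id1 rose from 30.4 ± 7.03 to 109.6 ± 23.1 FPKM and the Smad inhibitor Skil from 12.4 ± 4.16 to 38.8 ± 1.78 FPKM. Ltbp1, a TGF-beta binding protein of the matrix, rose from 0.19 to 3.95 FPKM. Smad3 fell from 26.1 to 17.6 FPKM.

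Receptors and adhesion molecules more often rose than fell, where 15.4% of all genes compared rose and 15.6% fell. Of 41 cytokine and growth factor receptors 19 rose and 5 fell (3 without E16.5 FL2), with 16 and 2 in both fits, and 16 rose of the 38 with at least 1 FPKM in both groups. Beside Il1rl1 and Kit, Il3ra, the IL-3 receptor, rose from 15.6 ± 1.81 to 31.8 ± 5.23 FPKM, and Csf2rb, the shared chain of the IL-3, IL-5 and GM-CSF receptors, from 21.8 ± 1.28 to 39.4 ± 4.62 FPKM. The coding sequence of Csf2rb is 92.9% identical to that of Csf2rb2, which also rose. Il1r1, an IL-1 receptor, rose from 4.25 to 12.2 FPKM, Pdgfrb, a receptor of platelet-derived growth factor, from 7.06 to 19.8 FPKM and Il10ra from 4.56 to 11.2 FPKM. The 2 that fell in both fits were Igf2r and Il21r, the IL-21 receptor, from 9.78 to 5.61 FPKM, whose call was lost without E16.5 FL2 or Perinatal BM2. Of 36 genes of homing and adhesion 15 rose and 3 fell, with 12 and 3 in both fits. Itgb7, an integrin chain that pairs with Itga4, had 9.77, 9.32 and 8.17 FPKM in E16.5 FL and 29.6, 22.3 and 37.4 FPKM in Perinatal BM (log2 difference 1.58 ± 0.15 (SE), adjusted p = 6.36e-08). Cd47, which protects cells from phagocytosis, had 140.2, 144 and 126 FPKM in E16.5 FL and 237, 238 and 211 FPKM in Perinatal BM. Itgal and Fut7, which modifies selectin ligands, rose from 43.2 to 60.1 FPKM and from 11.1 to 15.3 FPKM, and Jam3, an adhesion molecule of stem cells, fell from 12.7 to 6.84 FPKM. Cxcr4, the receptor that holds HSPCs in marrow, had 39.7, 42.4 and 22.1 FPKM in E16.5 FL and 66.8, 49 and 60.9 FPKM in Perinatal BM (adjusted p = 0.0157). Its call was lost in the 6-library fit and without E16.5 FL3 (adjusted p = 0.134) or Perinatal BM1 (0.07). Itga4 had 72.6 ± 7.61 against 89.8 ± 12.9 FPKM and was not called (adjusted p = 0.0581). The chemokines Ccl3 and Ccl4 fell, Ccl4 with 197, 174 and 179 FPKM in E16.5 FL and 31.7, 39.3 and 50.7 FPKM in Perinatal BM (log2 difference -2.17 ± 0.27 (SE)) and Ccl3 from 220.5 ± 13.9 to 83.1 ± 6.56 FPKM. Cxcl10, an interferon-induced chemokine, had 12.7, 11.1 and 12.8 FPKM in E16.5 FL and 1.23, 0.979 and 2.94 FPKM in Perinatal BM. Of the 15 chemokine and receptor genes 6 rose (3 without Perinatal BM1) and 3 fell (5 without Perinatal BM3), 3 and 3 in both fits, with Ccl9 among the higher, from 21.1 to 52 FPKM. The lower share of this list was near that of all genes.

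Most antigen presentation genes rose. Of 24 genes of MHC class I presentation 14 rose and 1 fell, 9 and 1 in both fits, where 15.4% of all genes rose and 15.6% fell. H2-K1, a classical class I heavy chain, had 133, 136 and 145 FPKM in E16.5 FL and 255, 255 and 256 FPKM in Perinatal BM, a log2 difference of 0.88 ± 0.07 (SE) with adjusted p = 1.27e-08. H2-D1, whose coding sequence is 88.3% identical to that of H2-K1, had 119.7, 109.9 and 115 FPKM in E16.5 FL and 219, 199 and 244 FPKM in Perinatal BM. The peptide transporter genes Tap1 and Tap2 rose from 26.7 to 48 FPKM and from 47.5 to 77.2 FPKM, and Psmb8, of the immunoproteasome, from 93 to 146 FPKM. Of 10 genes of class II presentation, 8 rose (5 in both fits), with library 3 of Perinatal BM far above the other 2. H2-Ab1 had 7.6, 8.95 and 5.42 FPKM in E16.5 FL and 34.2, 39.9 and 119 FPKM in Perinatal BM (log2 difference 2.77 ± 0.34 (SE)). H2-Aa had 4.91, 7.4 and 3.94 FPKM in E16.5 FL and 22.6, 31.4 and 109.5 FPKM in Perinatal BM, a difference of 2.81 that was 2.14 without Perinatal BM3. Cd74, the invariant chain, had 11.3, 20.1 and 9.64 FPKM in E16.5 FL and 34.9, 61.6 and 181 FPKM in Perinatal BM, a difference of 2.41 that was 1.76 without Perinatal BM3, and it was not called in the 6-library fit. The class II genes are those of dendritic and B cells, and of 4 defining dendritic genes 2 were above 1 FPKM on average. Itgax, an integrin chain, had 1.33, 1.56 and 1.65 FPKM in E16.5 FL and 2.92, 2.28 and 3.56 FPKM in Perinatal BM, and rose in both fits. Siglech had 1.18 ± 0.522 against 1.64 ± 0.513 FPKM and was not called. Clec9a had 0.23, 0.0485 and 0.0485 FPKM in E16.5 FL and 0.668, 0.539 and 1.64 FPKM in Perinatal BM, and Xcr1 0.114 ± 0.0929 against 0.132 ± 0.168 FPKM. Perinatal BM3 was the highest library for Itgax, Siglech and Clec9a. Summed dendritic cell genes came to 634, 622 and 541 FPKM in E16.5 FL and 689, 681 and 944 FPKM in Perinatal BM, and their part in the class II difference was not tested. Of 44 interferon response genes, 13 rose and 1 fell, and 1 (Socs3) rose in both fits. The 13 became 8 without E16.5 FL2 or E16.5 FL3 and 7 without Perinatal BM3. Irf7, a regulator of interferon genes, had 10.3, 7.44 and 5.25 FPKM in E16.5 FL and 12.1, 11.7 and 31.4 FPKM in Perinatal BM. Of 24 Toll-like receptor and NF-kB feedback genes 1 rose and 2 fell. Cd14, a coreceptor of endotoxin, rose from 0.693 to 2.88 FPKM, and Relb, an NF-kB subunit, fell from 7.1 to 3.57 FPKM.

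Lysosome and granule genes rose together, 21 of 40 against 1 lower, with 19 and 1 in both fits (median log2 difference 0.26). Among all genes compared, 15.4% rose and 15.6% fell. Rab44, a GTPase of mast cell secretory granules, had 13.3, 9.96 and 7.98 FPKM in E16.5 FL and 57.8, 62.9 and 43.4 FPKM in Perinatal BM, a log2 difference of 2.30 ± 0.23 (SE) with adjusted p = 2.06e-07. Cd63, a granule membrane protein, had 96.5, 66.8 and 65.4 FPKM in E16.5 FL and 228, 136 and 196 FPKM in Perinatal BM. No Perinatal BM library fell within the range of E16.5 FL in either. The enzymes that most cells carry rose by less, among them Ctsd, a cathepsin, from 132 ± 4.94 to 212 ± 18.1 FPKM, Glb1, the beta-galactosidase, from 31.6 to 54.4 FPKM and Man2b1, a mannosidase, from 53.8 to 89.7 FPKM. Grn, progranulin, rose from 30.7 to 48.3 FPKM. Mast cells are rich in such granules, and the part of the mast cell genes in this list was not tested.

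Some chromatin genes were lower, where 15.6% of all genes compared fell and 15.4% rose. Of 21 genes of DNA methylation 7 fell, all in both fits, and 2 rose (1 without E16.5 FL2, E16.5 FL3 or Perinatal BM1). The de novo methyltransferases Dnmt3a and Dnmt3b fell from 36.4 ± 4.43 to 25.7 ± 1.85 FPKM and from 97.9 ± 10.03 to 65.2 ± 7.17 FPKM, Uhrf2 from 48.9 to 32.7 FPKM and Zbtb33, a methyl-CpG binding protein, from 17.3 to 9.3 FPKM, while Tet2, a dioxygenase that oxidises methylcytosine, rose from 6.82 ± 1.12 to 12.3 ± 1.88 FPKM. Of 40 Polycomb and trithorax genes 9 fell and 2 rose, 5 and 2 in both fits, a lower share not far above that of all genes. With 1 library left out, 6 to 10 of them fell. Ezh2, the Polycomb methyltransferase, had 77.8, 72.6 and 67.3 FPKM in E16.5 FL and 43.5, 43.2 and 52.4 FPKM in Perinatal BM (log2 difference -0.64 ± 0.08 (SE), adjusted p = 1.89e-06), and Cbx7, a Polycomb subunit, rose from 5.25 ± 0.86 to 10.7 ± 2.47 FPKM. Of 45 haematopoietic transcription factors 10 rose and 5 fell, 7 and 5 in both fits. Cebpa, which drives myeloid fate, had 20.6, 19.1 and 15.2 FPKM in E16.5 FL and 41.2, 42.8 and 35.7 FPKM in Perinatal BM, and Cebpb rose from 71 to 129 FPKM.

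The other lists are described by their counts. Among all genes compared, 15.4% rose and 15.6% fell, and most counts of these lists lie near or under those shares. Of 44 Myc and nucleolus genes 3 rose and 8 fell (5 without E16.5 FL1 or Perinatal BM1), 1 and 3 in both fits, with Mycn the one of largest difference in size. Of 28 p53 targets 3 rose and 6 fell, and the kinase Plk2 fell from 96.3 to 32.8 FPKM. Of 24 apoptosis regulators 6 rose and 3 fell, and Bcl2l2, a survival protein, rose from 3.84 to 7.78 FPKM. Of 23 Notch genes 5 rose (3 without E16.5 FL3 or Perinatal BM3) and 1 fell. Of 26 hypoxia genes 4 rose and 4 fell, and of 34 antioxidant genes likewise 4 and 4, with 2 higher without E16.5 FL2, E16.5 FL3 or Perinatal BM1. Their regulator Nfe2l2 fell from 22.7 ± 0.301 to 12.7 ± 1.63 FPKM, and Osgin1, an oxidative stress gene, had 86.6, 60.3 and 60.6 FPKM in E16.5 FL and 9.72, 12.1 and 16 FPKM in Perinatal BM, a log2 difference of -2.37 ± 0.36 (SE). Of 26 heme and iron genes 4 rose (2 without E16.5 FL3 or Perinatal BM1) and 4 fell, among them Cpox, a heme synthesis enzyme, from 27.4 to 11.8 FPKM. Of 16 circadian genes 1 rose and 3 fell (1 without E16.5 FL1). Of 82 cytosolic ribosomal protein genes 2 rose and 2 fell, shares far under those of all genes, and these counts moved by 1 gene when single libraries were left out.

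**Figure D4:**
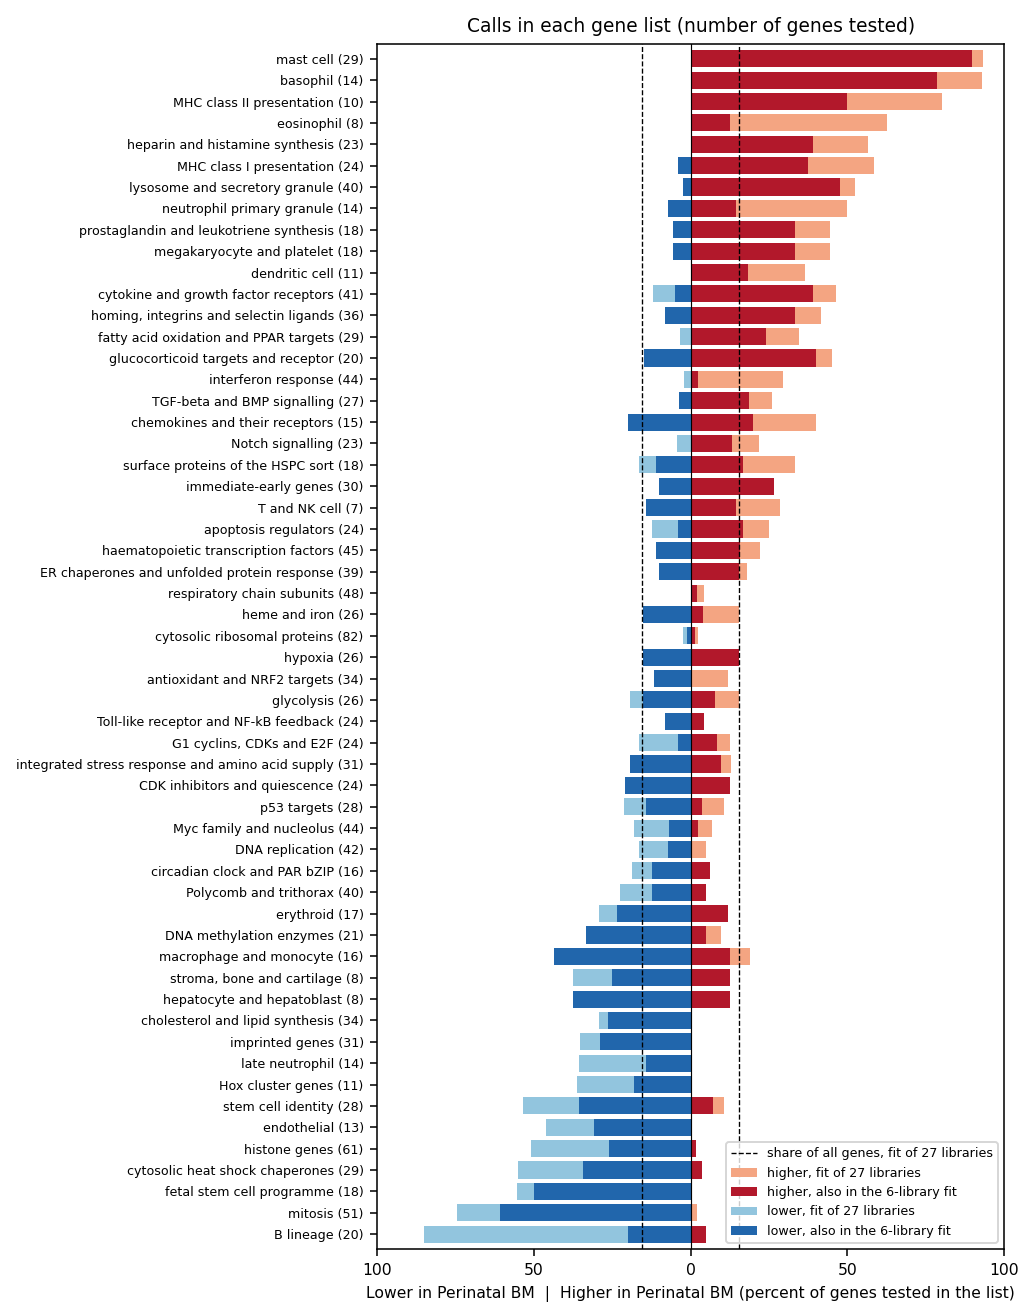
Share of the genes compared in each of 56 lists that was called higher (right) or lower (left) in Perinatal BM, in percent; pale bars are the fit of 27 libraries, dark bars the genes called in both fits, and dashed lines the shares of all genes, 15.4% and 15.6%. Mast cell and basophil lists stand at the top, and the mitosis and B lineage lists at the bottom.

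Among the ribosomal genes 1 pair stood apart and cannot be read as 2 separate changes. Rps27, a protein of the small subunit, lies at chr3:90212667-90213648, and Rps27rt, an intronless copy, at chr9:114982366-114982739 (RefSeq, GRCm38.p6). Rps27 had 12.9, 11.4 and 269.5 FPKM in E16.5 FL and 2446, 2299 and 3448 FPKM in Perinatal BM, a log2 difference of 6.22 ± 2.10 (SE) with adjusted p = 0.0298. Rps27rt had 4148, 3349 and 2637 FPKM in E16.5 FL and 991, 277 and 207 FPKM in Perinatal BM, a difference of -3.11 ± 0.79 (SE) with adjusted p = 0.0048. The copies changed in opposite directions, and their sum was 3476 ± 635 against 3223 ± 570.5 FPKM, with overlapping values. The coding sequence is shown because it is the same 255 bases in both genes, with 0 differences (GENCODE release M21, GRCm38).
Rps27: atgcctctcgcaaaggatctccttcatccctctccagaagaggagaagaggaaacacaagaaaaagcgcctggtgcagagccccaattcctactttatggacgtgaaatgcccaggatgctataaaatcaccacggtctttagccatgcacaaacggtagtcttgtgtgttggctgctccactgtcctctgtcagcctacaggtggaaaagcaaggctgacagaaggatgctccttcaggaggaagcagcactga
The split between the copies also varied within other groups, such as E12.5 PL, with Rps27 from 11.7 to 3771 FPKM in the other 21 libraries and a sum of 2172 to 3976 FPKM. The call for Rps27 was lost without E16.5 FL1 (adjusted p = 0.0992), E16.5 FL2 (0.107), Perinatal BM1 (0.0663), Perinatal BM2 (0.0615) or Perinatal BM3 (0.0642), and without E16.5 FL3 its log2 difference was 7.68. For Rps27rt it was -3.79 without Perinatal BM1. Reads of these genes may be assigned to either copy, and both directions are therefore uncertain.

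Set among all 9 groups, the genes had several courses, given here as means ± SD of 3 libraries with no test. The highest mean of both mast cell proteases was in Perinatal BM. Cma1 had 773 ± 386 FPKM there, 16.48 ± 5.35 in 1w BM and 0.908 ± 0.343 in 8w BM. Cpa3 had 623 ± 282 FPKM there and 32 ± 4.87 FPKM in 1w BM, above its level in E16.5 FL. Cpt1a had 13 ± 0.607 FPKM in E12.5 FL and 52.7 ± 0.967, 60.4 ± 7.99 and 56.7 ± 3.67 FPKM in 1w, 4w and 8w BM. H2-K1 had 312 ± 45.4 FPKM in 1w BM and 738 ± 8.56 in 8w BM, with Perinatal BM between E16.5 FL and 1w BM. Igf2bp1 was at 29.9 ± 1.51 FPKM in E12.5 FL and 0.0367 ± 0.0432 in 1w BM. Hmmr had its lowest mean in Perinatal BM, with 17.8 ± 1.61 FPKM in 1w BM and 18.4 ± 2.65 in 8w BM. Hspa5 had 289.9 ± 24.7 FPKM in E12.5 FL, under its E16.5 FL level, and 679 ± 19.2 in 3w BM. Mycn and Scd2 had their highest means in E16.5 FL. Scd2 stood at 90.9 ± 7.11 FPKM in 1w BM, near its Perinatal BM level.

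**Figure D5:**
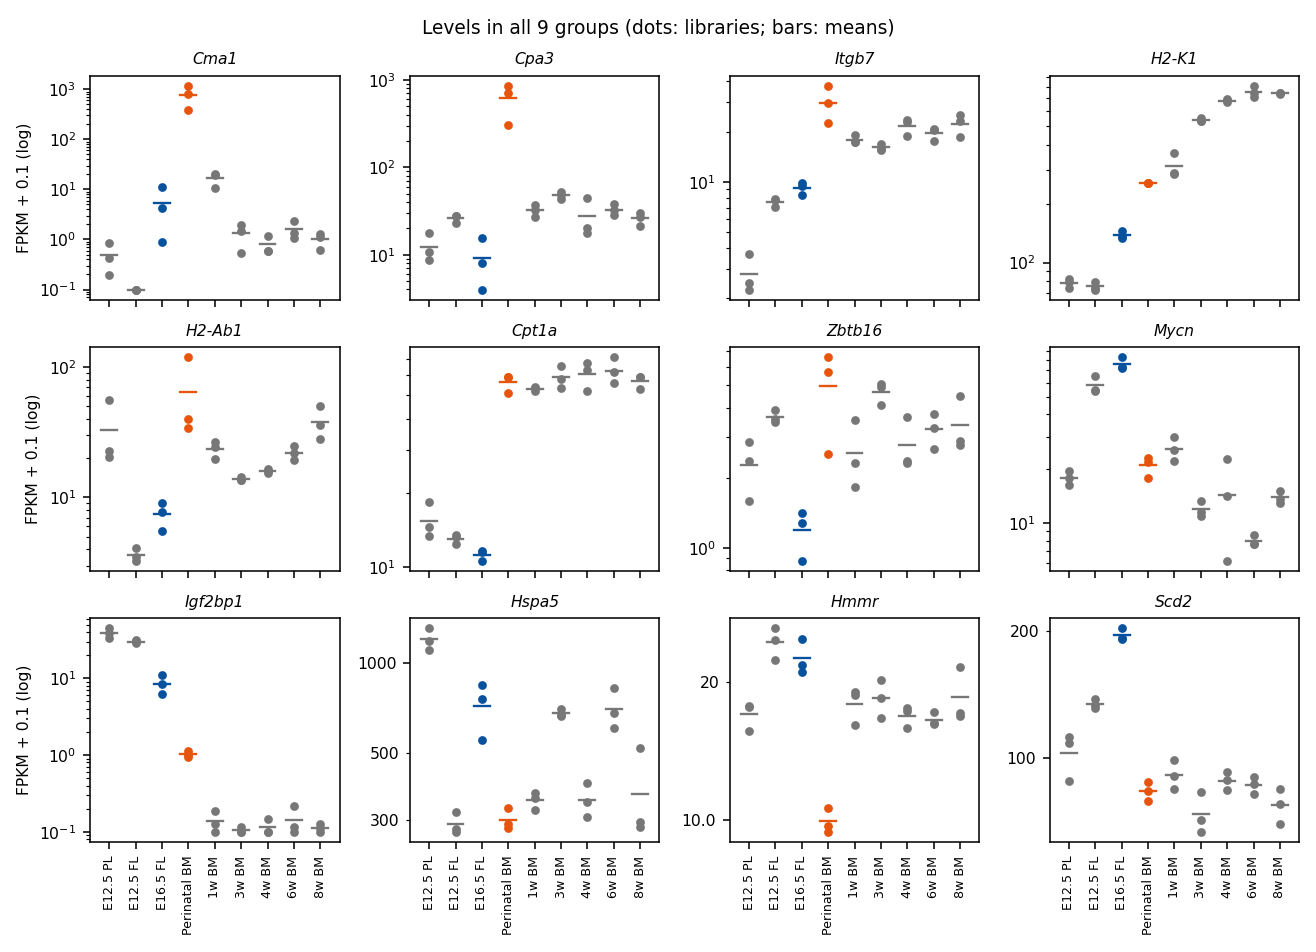
FPKM + 0.1 (log scale) of 12 genes in the 9 groups in order of age, with 3 libraries (dots) and their mean (bar) per group; E16.5 FL is blue, Perinatal BM orange. Cma1 and Cpa3 peak in Perinatal BM, Cpt1a keeps the higher level in every later marrow group, and Hmmr is lowest in Perinatal BM.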

How the data were processed

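Bulk RNA-seq of haematopoietic stem and progenitor cells was compared between 3 E16.5 fetal liver and 3 perinatal marrow libraries. The authors deposited 1 table of FPKM values, fragments scaled to transcript length and library total. Reads were handled with Trim Galore, FastQC, STAR 2.7 and HTSeq 0.6.1p1 on GRCm38, per the submitters' processing notes. The tool that computed FPKM and its gene annotation were not given in the sources used here. FPKM are not counts, so the depth of each library is unknown and no counting error could be given; a rise in abundant transcripts lowers the FPKM of all others.

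From these values log2(FPKM + 1) was computed (pseudocount 1), and genes with at least 1 FPKM in at least 3 of the 27 libraries were fitted with limma 3.58.1 (R 4.3.3), with 1 mean for each of 9 groups, 18 residual degrees of freedom and Benjamini-Hochberg adjustment over all genes tested. A gene was called at adjusted p under 0.05. Genes were counted here where they also had at least 1 FPKM in at least 3 of the 6 libraries. A fold is 2 to the power of that difference, on the FPKM + 1 scale, and understates changes of low genes. In simulated data of 13350 genes, 66% of genes changed by 0.5 on the log2 scale were recovered, and 98% of those changed by 1. The fit called 6 unchanged genes. These rates were not split by expression level or by spread. They cannot be carried over to low genes, or to genes whose spread differs between groups.

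The genes named are the 12 with the largest log2 differences in each direction (adjusted p under 0.05, a mean of at least 5 FPKM in the higher group, no overlap between groups, without clone names, pseudogenes, mitochondrial genes or names turned into dates), and members of 56 gene lists. Members and lists were chosen with earlier results of these data known. The alternatives tried were no filter, a pseudocount of 0.1, a filter of 5 FPKM, a filter on the 6 libraries, median-of-ratios scaling, a fit to the 6 libraries alone, leaving out the group labelled E12.5 PL, a replicate block and leaving out each library. Sequences and positions come from the RefSeq and GENCODE annotation of GRCm38, read with Python 3.11.15 and Biopython 1.88.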

Additional observations from a re-analysis of the deposited data

How the results depend on the processing

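The counts of 1771 higher and 1798 lower genes fell to 1042 and 953 in the fit to the 6 libraries alone, which has fewer libraries to estimate the spread. That fit uses only the spread of the 2 groups compared, which was wider for some genes and narrower for others than the pooled one. The SE of Cma1 was 0.46 in the fit of 27 libraries and 0.78 in that of 6. Its adjusted p in limma was 1.35e-10 and 0.00872. For Igll1 the SE was 0.49 and 0.92, and for Osgin1 0.36 and 0.22. Leaving out 1 library gave 1402 to 1757 higher genes, with the fewest without Perinatal BM1, and 1367 to 1864 lower genes. A pseudocount of 0.1, no filter, a filter of 5 FPKM, a filter on the 6 libraries, median-of-ratios scaling and a fit without E12.5 PL each kept both counts within 1.5 times, from 1533 to 1947 higher and 1663 to 2004 lower. Of 533 called genes followed, 324 were called under each of the 14 settings that tested them and 0 changed direction, and 168 were not called in the 6-library fit. In lists with counts of 3 or fewer in a direction, leaving out 1 library moved the count by up to 2 genes.

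Whether the replicate numbers pair the libraries is not known. The deviations of same-numbered libraries from their group means had correlations of 0.047, -0.10 and -0.149. Those of other pairs ran from -0.076 to 0.157. With 3 libraries per group these values cannot decide the question. With the replicate number as a block, 1761 genes were higher and 1799 lower. Without counts, sampling noise could not be told apart from spread between libraries, and low genes are the least certain.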
